A study of Mus musculus with 3 samples.

Results

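Regulatory T cells were examined in single-cell RNA profiles of mouse brain immune cells, taken from the right hemisphere with no tumor, with low grade glioma (LGG) or with the library labelled HGG. The cells were those that a deposited annotation headed VHove2019 names regulatory T cells, 71 of 12668 cells in all. Of these, 60 of 5024 cells came from LGG, 11 of 4100 from HGG and 0 of 3544 from the brain with no tumor. The name rests on the authors' labelling of each cell. Levels of Foxp3, Cd4 or any other gene were not analysed here, so the name could not be checked against the markers of the cell type.

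Each group was 1 library made on the 10x Genomics Chromium from CD45-selected cells after papain digestion, and the labels do not say how many animals a library holds. The library with no tumor is labelled with an age of 0 to 2 weeks, LGG with 3 to 4 weeks and HGG with 6 to 8 weeks, so the group, its library and its labelled age cannot be told apart. The labels leave it unsaid whether age counts from birth or from the injection. Per the labels' protocols, cells had been injected into that hemisphere. The kind of cells injected, the strain and the genotype are not stated in the labels or notes read here. The title of the HGG library holds both the words no tumor and a library name ending in HGG, its description and the cell table say HGG, and it was taken as HGG on these. Per cell, the median count of UMIs (unique molecular identifiers, 1 per captured RNA molecule) was 12907.5 in HGG, 9863.5 in LGG and 8826.5 without a tumor. Of all cell barcodes, 15 occurred in more than 1 library, and 0 of the 71 cells carried one of them.

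Regulatory T cells are CD4 T cells that restrain other immune cells. Their identity is set by the transcription factor Foxp3, they depend on interleukin 2, which they bind through CD25, and they hold the inhibitory receptor CTLA-4 at their surface. In tumors they are known for limiting the activity of effector T cells, and in healthy brain tissue they are rare.

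Regulatory T cells made up 1.19% of the LGG library (0.913 to 1.53%) and 0.268% of the HGG library (0.134 to 0.480%). Ranges in parentheses are 95% intervals, by the exact Clopper-Pearson method for shares and the Katz log method for their ratios, and they cover counting error only. The share was 4.45 times as large in LGG as in HGG (2.34 to 8.45). A call needed a ratio of 1.5 or more in either direction and exact intervals that did not overlap, and this difference met both conditions. With 1 library per group there is no test across groups, and no p-value is given. Of the 15 names of the same annotation, 7 were called higher in LGG than in HGG (46.7%) and 0 were called lower. The ratio for regulatory T cells ranked second, after that for T cells without a finer name (5.99, 4.15 to 8.65). The next were plasma B cells (4.08, 0.895 to 18.6), which met no call, and DC4, a dendritic cell name (3.67, 1.85 to 7.28). A higher share in LGG was thus common among the names. A common range of UMIs, 2985.2 to 14346.3 per cell, was set from a low and a high percentile of each of the 3 libraries. Within it the call ended, at 27 of 3160 LGG cells and 9 of 1643 HGG cells (ratio 1.56, 0.735 to 3.31). That range is narrower than the span the libraries share, as cells reached 96042 UMIs in LGG and 67755 in HGG. It left out 33 of the 60 LGG and 2 of the 11 HGG regulatory T cells.

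With no tumor, 0 of 3544 cells bore the name, which allows a share of up to 0.0847%, or 3 counts of the library. Set against that limit, regulatory T cells were at least 14.1-fold higher in LGG, and in HGG at least 3.17-fold higher. These bounds take the shares of LGG and HGG as observed. The exact interval for 0 of 3544 cells reaches 0.104%, and against that limit the folds are smaller. Absence or rarity without a tumor was not particular to this name. The dendritic cell names DC3 and DC4 had 0 cells there. T cells without a finer name had 7, against 235 in LGG and 32 in HGG. Among cells outside the microglia classes, the share of regulatory T cells was 2.39% in LGG and 0.620% in HGG, a ratio of 3.85 (2.03 to 7.31).

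Within the T cell compartment no difference of that kind was seen. Of the cells the annotation names T cells, NK cells or regulatory T cells, regulatory T cells were 60 of 335 in LGG (17.9%, 13.95 to 22.4%) and 11 of 60 in HGG (18.3%, 9.52 to 30.4%). The ratio of LGG to HGG was 0.977, and its interval of 0.546 to 1.75 covers both a lower and a higher share in LGG. Leaving out NK cells gave 20.3% in LGG and 25.6% in HGG (ratio 0.795, 0.455 to 1.39). The brain with no tumor held 16 T and NK cells, 0 of them regulatory. A count of 0 of 16 allows a share of up to 18.8%, so 16 cells are too few to exclude a share of the size seen in both tumor libraries.

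**Figure D1:**
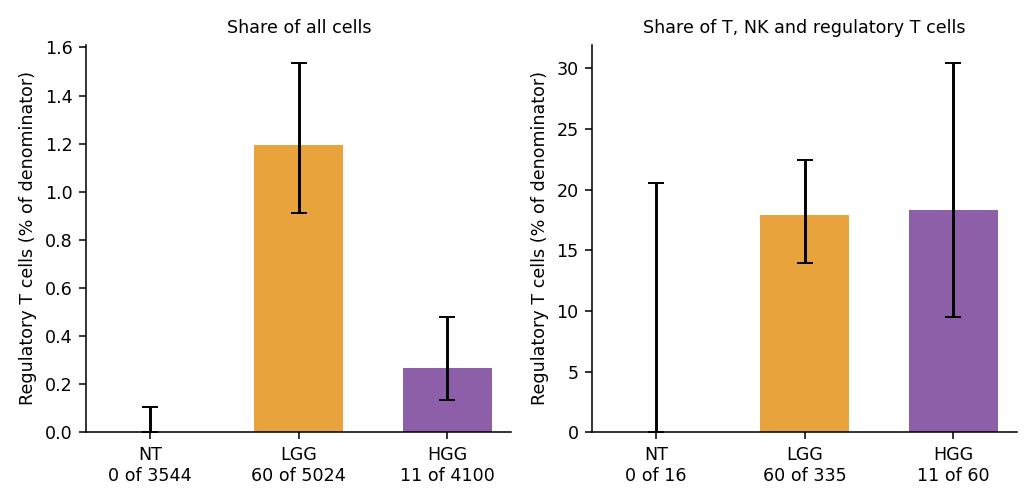
Regulatory T cells as a percent of all cells (left) and of T, NK and regulatory T cells (right) in the libraries with no tumor (NT), LGG and HGG. Bars give the observed share of the 1 library per group and lines its exact 95% interval; the intervals of LGG and HGG lie apart on the left, at 1.19% and 0.268%, and overlap on the right, at 17.9% and 18.3%.

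The authors' class column has no regulatory T cell class, and spread these 71 cells over 5 classes. The largest part, 26 cells, lay in the CD4 T cell class, the lineage to which regulatory T cells belong. That class holds 31 cells in all, so 83.9% of it (66.3 to 94.5%) bore the regulatory name, 19 of 23 cells in LGG and 7 of 8 in HGG. T cells without a finer name held 22 regulatory T cells out of 436 cells, and CD8 T cells, the cytotoxic lineage, held 5 of 159. The remaining 18 lay outside the T cell classes. Of these, 15 belonged to Int Mo/Mac, a myeloid class of 959 cells whose abbreviation the labels do not spell out. The other 3 belonged to the 198 B cells. All 18 came from LGG, whereas each of the 11 HGG cells lay in a T cell class, 7 as CD4, 3 as T cells and 1 as CD8.

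Other deposited annotations mostly placed the 71 cells in the T lineage. The scANVI labels called 69 of them T cells, the second SingleR labels 67 and the second VHove2019 labels 66. Names were compared over 8 annotation columns, the class column among them, with innate lymphoid (ILC) names counted alongside T and NK names. Of the 71 cells, 44 had such a name in all 8, 65 in at least 5 and 6 in fewer. Some columns were not among the 8. The scsa labels of version 5 called 21 of the 71 cells unknown, all from LGG. Version 8 of these labels called 36 T cells, 26 CD4 T cells and 5 cytotoxic T cells. A coarser layer of the class column called 15 cells macrophages, all from LGG. All these annotations were made from the same RNA profiles and are not independent of one another. The column headed PAntunes2021 repeated the regulatory name for all 71 cells, but it differs from the VHove2019 column in only 14 of the 12668 cells and adds nothing to it.

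The regulatory name itself was shared less widely. The fine label column named 41 of the 71 cells regulatory T cells (57.7%), out of the 73 cells it so names in all (56.2%). It called 14 others effector memory CD4 cells (CD4+ Tem) and 10 CD8 memory cells, namely 6 CD8+ Tcm and 4 CD8+ Tem. The fine SingleR labels gave 35 of the 71 cells the name T.Tregs, out of 47 cells with that name. A further 3 were called T.4FP3+25+, a Foxp3 and CD25 positive CD4 T cell. Together these are 53.5% of the 71 cells and 76.0% of the 50 cells with either SingleR name. VHove2019 and these 2 annotations together named 26 cells regulatory, 19 in LGG and 7 in HGG, and 18 cells had the name from VHove2019 and PAntunes2021 alone, 17 of them in LGG. Counted over the 26 cells, the share was 0.378% in LGG and 0.171% in HGG, a ratio of 2.22 (0.932 to 5.26) that met no call. The coarse SingleR labels have no regulatory name and called 40 of the 71 cells NKT, 11 T cells and 9 microglia.

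**Figure D2:**
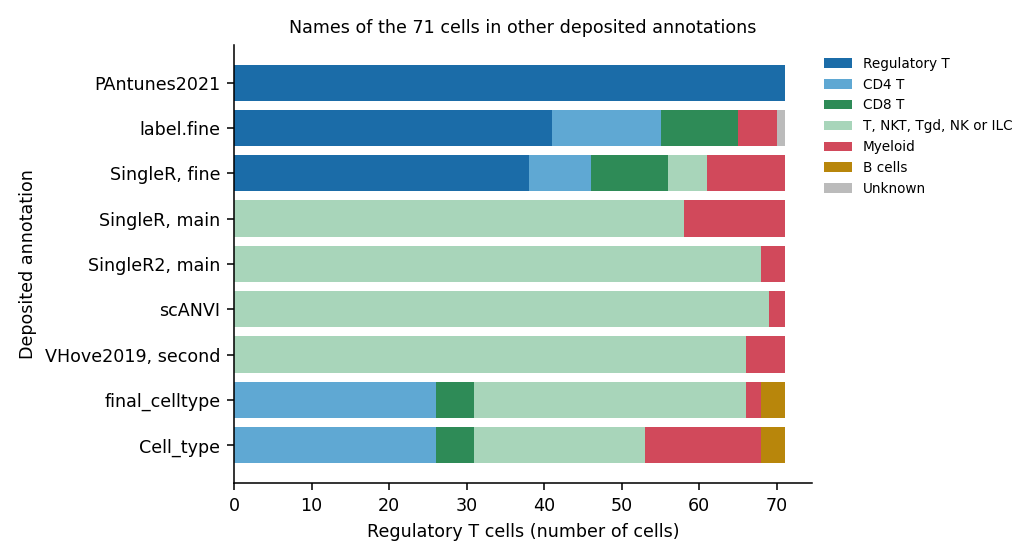
Number of the 71 regulatory T cells (horizontal axis) given each kind of name by 9 other deposited annotations (vertical axis), with names grouped by color. PAntunes2021 gave all 71 the regulatory name, label.fine gave it to 41 and fine SingleR to 38, while the class column (Cell_type, bottom) placed 15 cells with myeloid cells and 3 with B cells.

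Regulatory T cells of LGG were deeper than those of HGG. UMIs per cell ran from 613 through a median of 18539 to 82286 in LGG, and from 3299 through 5694 to 17294 in HGG. The groups overlapped, with 31 of the 60 LGG cells above the deepest HGG cell. The median was 3.26 times as high in LGG. Genes per cell had medians of 3759.5 and 1931, and the median percent of mitochondrial UMIs was 3.27% in LGG and 3.04% in HGG. Other T cells differed less, with medians of 9139 UMIs in LGG and 7135.5 in HGG (1.28 times), and NK cells stood at 9055.5 and 5319 (1.70 times). Over all cells the order was the opposite, with the HGG median above that of LGG.

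Depth varied among the classes within LGG. The 15 regulatory T cells of the Int Mo/Mac class carried 23757 to 82286 UMIs, with a median of 44654. The 19 cells of the CD4 class carried 5328 to 27392 (median 9912) and the 19 cells of the T cell class 613 to 51579 (median 9112). The 4 cells of the CD8 class had a median of 10385 and the 3 cells of the B cell class a median of 31631, with a range of 5049 to 44070. Deep cells thus occurred in several classes, and 613 UMIs, the lowest value, belonged to a cell with 339 genes. Authors' doublet calls, droplets likely to hold more than 1 cell, fell on 8 of the 60 LGG cells (13.3%, 5.94 to 24.6%) and 1 of the 11 HGG cells. In LGG they fell on 25 of 235 other T cells (10.6%) and on 4.04% of all cells. The 8 LGG cells with such a call had 24070 to 81010 UMIs, and 6 of them were in the Int Mo/Mac class. Without doublet calls, the LGG median was 12094 UMIs.

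**Figure D3:**
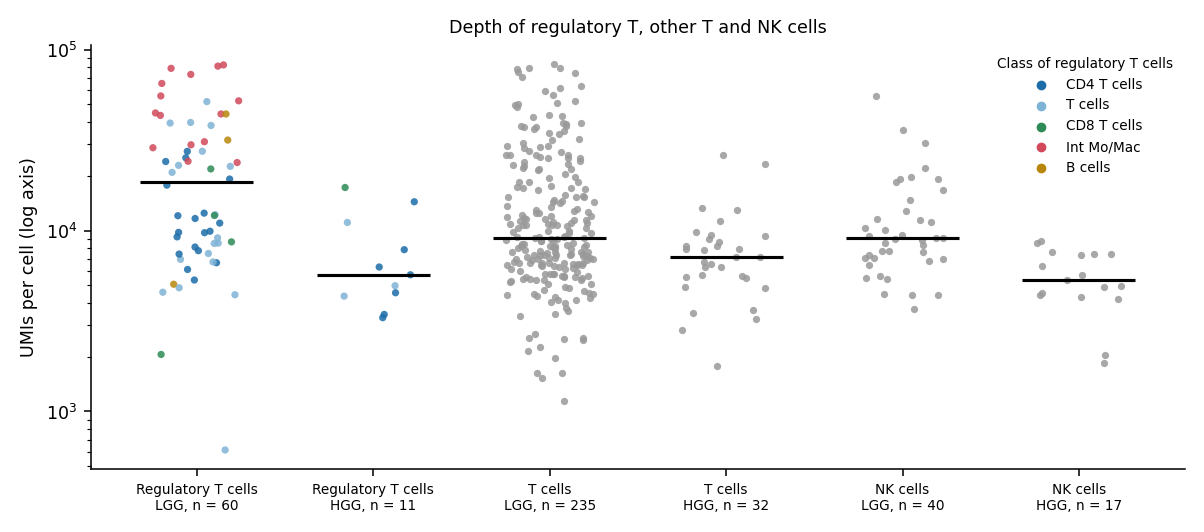
UMIs per cell (log axis) of regulatory T cells, other T cells and NK cells in LGG and HGG, 1 point per cell, with a black line at the median and regulatory T cells colored by their class. The red points, 15 LGG cells of the Int Mo/Mac class, lie between 23757 and 82286 UMIs, above all 11 HGG regulatory T cells, the deepest of which has 17294.

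The S and G2M scores, which summarise genes of DNA replication and of the steps up to division, set a part of the LGG cells apart. The S score ran from -0.071 through a median of 0.031 to 0.827 in LGG and from -0.050 through 0.0087 to 0.108 in HGG. The G2M score ran from -0.111 through 0.061 to 1.11 in LGG and from -0.0073 through 0.022 to 0.0998 in HGG. Medians were close to 0 in both libraries, and the difference lay in the upper tail of LGG. In that library 23 of 60 cells had an S or G2M score of at least 0.2 (38.3%, 26.1 to 51.8%), a limit chosen after the values were seen. In HGG 0 of 11 did, and 0 of 11 cells allows a share of up to 27.3%. The exact interval for HGG reaches 28.5%, so it overlaps that for LGG. Of other T cells in LGG, 25 of 235 reached 0.2 (10.6%, 7.004 to 15.3%), and of NK cells 2 of 40 did. At a limit of 0.1 the counts were 27 of 60 LGG and 1 of 11 HGG regulatory T cells, and 43 of 235 other LGG T cells.

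The deposited phase calls show less. They gave G1 to 8 of the 71 cells, S to 28 and G2M to 35. A cell was called G1 where both scores were below 0 and otherwise took the phase of the larger score, in 12668 of 12668 cells. Of the 63 regulatory T cells not called G1, 35 had both scores under 0.1. Phase calls alone are therefore not read as division here.

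**Figure D4:**
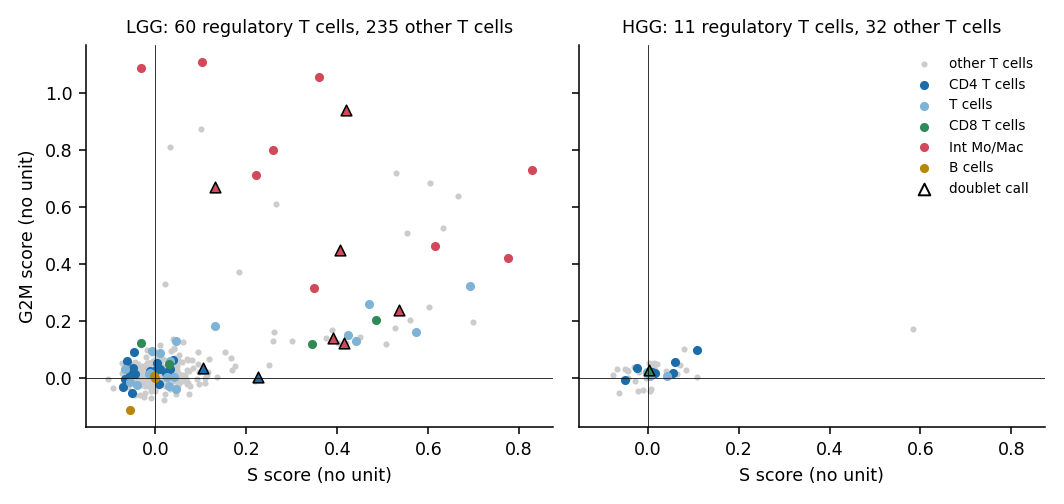
S score (horizontal axis) against G2M score (vertical axis) of each regulatory T cell, colored by class, with other T cells in grey and doublet calls as outlined triangles, for LGG (left) and HGG (right). All 11 HGG regulatory T cells have both scores at or under 0.108, while 23 of the 60 LGG cells reach 0.2 on at least 1 axis.

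The cells with high scores shared a cluster. In the deposited clustering at resolution 0.4, 21 of the 60 LGG regulatory T cells (35.0%, 23.1 to 48.4%) lay in cluster 7, with 0 of the 11 HGG cells. That cluster holds 332 cells of mixed names, the most frequent being prol. TAM with 188 cells, and 130 of its 135 LGG cells had a score of at least 0.2. Of other LGG T cells, 14 of 235 were in it (5.96%, 3.29 to 9.79%). Its 21 regulatory T cells comprised the 15 Int Mo/Mac cells, without exception, and 6 of the T cell class. Their larger score was at least 0.183 in each cell, and 12 were called S and 9 G2M. Outside the cluster, 3 of 39 LGG cells reached 0.2. Class also followed cluster at this resolution. All 26 CD4 and 5 CD8 regulatory T cells lay in cluster 5 and the 3 of the B cell class in cluster 10. Of the 135 LGG cells of cluster 7, 121 were Int Mo/Mac. Classes, clusters and scores come from the same RNA, so that their overlap is a description and not separate evidence.

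In several but not all other annotations, most of these 21 cells kept a T cell name. The fine label column called 15 of the 21 regulatory T cells (71.4%, 47.8 to 88.7%), against 19 of the 39 LGG cells outside the cluster (48.7%, 32.4 to 65.2%). With the fine SingleR labels the order was the opposite, at 5 of 21 (23.8%, 8.22 to 47.2%) and 23 of 39 (59.0%, 42.1 to 74.4%). In place of a regulatory name, SingleR gave 9 of the 15 Int Mo/Mac cells a name of effector CD8 T cells (T.8EFF). Of the regulatory T cells outside cluster 7, 0 received one. Of those 15 cells, scANVI called 15 T cells and the second SingleR and second VHove2019 labels 13 each. The 3 with a dendritic cell or macrophage name in SingleR were all doublet calls.

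High scores went with depth. The 21 cells of cluster 7 had a median of 43276 UMIs against 9729 for the 39 others of LGG, and 20 of the 21 were deeper than any HGG regulatory T cell. Among LGG regulatory T cells under 10000 UMIs, 1 of 23 had a score of at least 0.2, and from 10000 to under 20000 UMIs 0 of 8 did. At 20000 UMIs or more, 22 of 29 did (75.9%, 56.5 to 89.7%), against 20 of 57 other LGG T cells of that depth (35.1%, 22.9 to 48.9%). Doublet calls covered 8 of those 29 and 25 of those 57. Among singlets of that depth, 15 of 21 regulatory T cells (71.4%, 47.8 to 88.7%) and 8 of 32 other T cells (25%, 11.5 to 43.4%) reached 0.2, with medians of 30967 and 28189.5 UMIs. HGG held 0 regulatory T cells of that depth, so the libraries could not be compared there. The part of depth in the scores was not tested.

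The 21 regulatory T cells of cluster 7 were mostly deep, had high scores and all came from LGG. Leaving the cluster out thus lowers both measures in LGG by construction, and the values without it are a description. Depth was not a trait of the whole cluster, whose cells of any name had a median of 24143 UMIs in LGG and 6924 in HGG. The 39 other LGG cells had a median of 9729 UMIs, 1.71 times the HGG median, and 11 of them were above the deepest HGG cell. Their median S score was 0.0012 and their median G2M score 0.022. Of these 39 cells, 5 had an S or G2M score above 0.108, the highest score of any HGG regulatory T cell. Taken by score, 3 were above the highest S score of HGG and 4 above its highest G2M score. The share of regulatory T cells among all cells outside the cluster was 0.798% in LGG and 0.278% in HGG, a ratio of 2.87 (1.47 to 5.60) that met the call. Among T, NK and regulatory T cells it was 13.0% in LGG and 18.6% in HGG (ratio 0.6996, 0.381 to 1.285).

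At the finest deposited clustering, resolution 5, regulatory T cells did not form a cluster of their own. Cluster 30 held 51 of the 71, including all 11 of HGG, next to 110 cells named T cells. Regulatory T cells were 40 of its 146 LGG cells (27.4%, 20.3 to 35.4%), 11 of its 31 HGG cells (35.5%, 19.2 to 54.6%) and 0 of its 9 cells with no tumor. The 20 regulatory T cells outside it were all from LGG. In the deposited UMAP, the 11 HGG cells fell between -8.00 and -7.42 on the first axis, beside other T cells. LGG cells spread from -10.6 to -5.24, with those of the Int Mo/Mac class between -6.42 and -5.24 and those of the B cell class between -10.6 and -10.1.

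**Figure D5:**
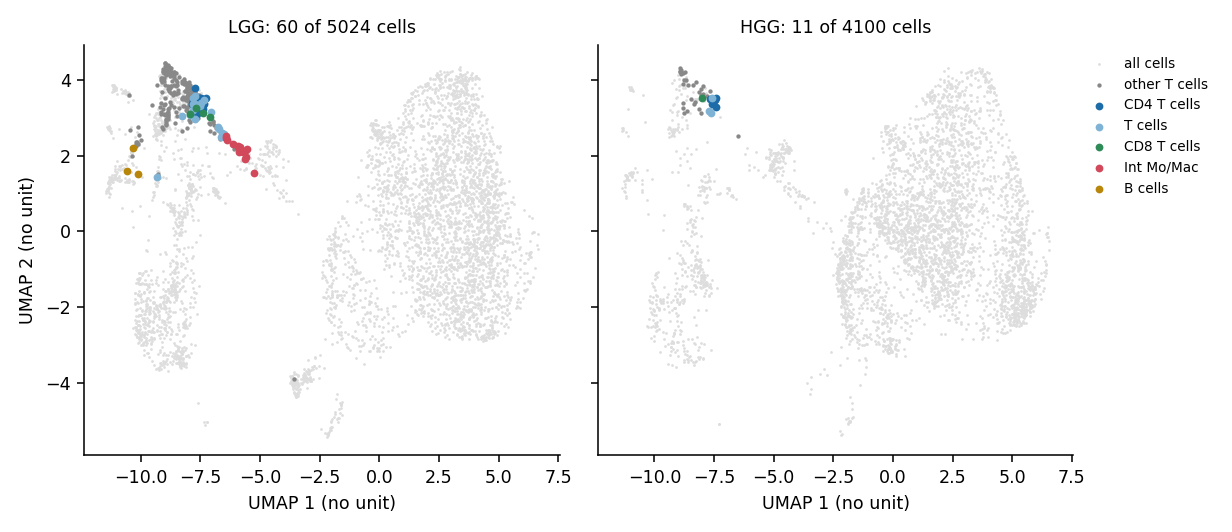
Deposited UMAP coordinates (no unit) of all cells (light grey), other T cells (dark grey) and regulatory T cells colored by class, in LGG (left) and HGG (right). The 11 HGG cells lie within the range of other HGG T cells on both axes. LGG cells extend to both sides on the first axis. The 15 cells of the Int Mo/Mac class lie at -6.42 to -5.24, and those of the B cell class at -10.6 to -10.1.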

How the data were processed

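A table of 12668 cells was used, and 36 of its 64 columns were read, which leaves 28 unread. Per the labels' protocols, Cell Ranger 3.0.2 made the counts against mm10. The submitters' processing notes also list Seurat 4. Each cell's deposited count of UMIs and of genes was taken as raw from its column name, which mentions no normalization. The percent of mitochondrial UMIs and each S and G2M score are derived values, deposited by the authors without naming the genes used. The deposited cells have at least 501 UMIs, at least 201 genes and at most 9.97% mitochondrial UMIs, and the authors' own limits are not given in the sources. Doublets were taken from the deposited call and kept, except where stated.

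Cells were assigned to groups through their library name, and regulatory T cells by the VHove2019 name. Shares, ratios and intervals were computed in Python 3.11.15 with scipy 1.17.1 and tested on simulated data. A limit for a count of 0 is 3 counts of the library or denominator named. No value per gene was analysed, so that the planned markers Foxp3, Cd4 and others, which were also the genes to be named, were not checked, and thinning UMIs was not possible. The cells, lists and limits were chosen with earlier results of these data known. Alternatives were limits on UMIs, genes, mitochondrial percent and doublets, the deepest cells, other annotations and other denominators.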

Additional observations from a re-analysis of the deposited data

How the results depend on the processing

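The share of regulatory T cells over all cells was higher in LGG than in HGG in all 14 alternatives, and met the call in 12. It did not within the common range of UMIs (ratio 1.56) or for the cells named regulatory by all 3 annotations (2.22). Both were chosen after the data were seen. The first keeps 36 of the 71 cells and the second 26. Some alternatives that met the call were also chosen after the data were seen. They left out the microglia classes, left out cluster 7, or asked for the Tregs name of the fine label column as well. The lowest ratio that met the call was 2.67, with T.Tregs of the fine SingleR labels (36 LGG and 11 HGG cells). The PAntunes2021 name marks the same 71 cells, so here and among T and NK cells it repeats the main result by construction. Among T and NK cells no alternative gave a call, and the ratio was between 0.669 and 1.002 in 13 of 14. With the 3 annotations it was 0.486 (0.214 to 1.11). Of the other results, 40 of 48 stayed within their interval or interquartile range. For depth that is a loose standard, as the LGG median of 18539 UMIs has an interquartile range of 8391.5 to 33242.5. The LGG median fell to 9912 without the deepest 5% and to 9729 outside cluster 7. In the common range it was 8486, against 4955 in HGG. The 8 results that moved concern cluster 7, the scores and the Int Mo/Mac class where deep cells or that cluster were left out. The LGG share in cluster 7 was 15.6% once the deepest 5% were left out and 3.704% in the common range. No paired analysis was possible because each group has 1 library. With 11 cells in HGG and 16 T and NK cells with no tumor, counting error limits every comparison.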

Other observations

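Regulatory names also fell on cells that VHove2019 names otherwise. The fine label column gave the name Tregs to 32 such cells, 25 in LGG, 6 in HGG and 1 with no tumor, the sole cell of that library with a regulatory name in any of the 3 annotations. VHove2019 called 11 of the 32 T cells, 10 unknown, 5 prol. TAM and 4 TAM 2, and the fine SingleR labels called 15 microglia. Doublet calls covered 10 of the 32, which had a median of 20570 UMIs. The fine SingleR labels gave T.Tregs to 12 cells outside the 71, of which VHove2019 called 9 T cells and 3 dendritic cells (2 DC3 and 1 DC1). Doublet calls covered 0 of these 12, and their median was 7650.5 UMIs. Only 2 cells had the regulatory name from both of these columns and not from VHove2019. Any of the 3 annotations named 113 cells regulatory, 93 in LGG, 19 in HGG and 1 with no tumor.

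Of the 31 cells of the CD4 T cell class, 5 lacked the VHove2019 name. VHove2019 called 4 of them unknown and 1 a T cell, and the fine label column called 2 of them Tregs.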
